A study of Mus musculus with 8 samples.

Results

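The Hoxb cluster genes are the 10 mouse genes Hoxb1 to Hoxb9 and Hoxb13, which lie side by side on chromosome 11. They were chosen by name, as every non-control array probe annotated with a RefSeq transcript of one of them. This gave 11 probes of 55681 non-control probes, and 10 genes of the 20887 genes that the array's annotation could be matched to. The set was proposed with the contrast between knockout and wild type already known, so every value of a Hoxb gene in that contrast is given as a description, without a test.

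Hox genes encode homeodomain transcription factors that give cells their position along the body axis. In each cluster the genes are arranged in the order in which they are used from head to tail, with Hoxb1 at the anterior end and Hoxb13 at the posterior end. Hox proteins bind DNA together with the TALE homeodomain proteins Pbx and Meis. Hoxb7 is expressed in the ureteric bud, the epithelial tube that branches into the collecting ducts of the kidney, and its promoter is widely used to direct transgenes to that epithelium.

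The samples of interest were ureteric bud cells of newborn C57BL/6 mice (postnatal day 0) with a conditional deletion of Dot1 in Hoxb7-positive cells (KO, DOT1-null, 4 samples). They were set against ureteric bud cells of control mice of the same strain and age (WT, 4 samples). Dot1l encodes the methyltransferase that marks histone H3 along transcribed genes. In both groups the cells were sorted as GFP-positive, and total RNA was labelled with Cy5 and hybridised beside the Cy3-labelled RNA of WT replicate 3. The Cre driver, the transgene that carried GFP and the number of animals per sample are not given in the sources used here, nor is it stated whether a transgene with Hoxb7 sequence was present in one group or in both. Each value below is a log2 ratio of Cy5 to Cy3 on one array, named by group and replicate number, and a difference is the mean of the KO arrays minus the mean of the WT arrays, with its standard error from limma.

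A few facts of the arrays bear on every Hoxb value. KO arrays filled one row of the single slide and WT arrays its second row, so that genotype and slide row cannot be told apart. The share of spots with Cy5 well above background reached 95.2% on KO 3 and lay between 59.1% and 68.9% on the other KO arrays, against 52.4% to 56.2% on the WT arrays. The scanner software marked 7665 spots on KO 3 as non-uniform or outlying, against 175 to 216 on the other arrays. On the first principal component of all probes, which held 55.6% of the variance, KO 2 lay at 21.9, among the WT arrays at 20.7 to 28.6, whereas KO 1, KO 3 and KO 4 lay at -40.8, -27.1 and -54.8. Dot1l itself (NM_199322, 1 probe) had log2 ratios of 0.35, 0.03, -0.04 and 0.30 on KO 1 to KO 4 and of 0.03, -0.05, -0.11 and 0.07 on WT 1 to WT 4. Its difference of 0.18 ± 0.11 (SE) did not pass the test (limma, Benjamini-Hochberg adjusted p = 0.341), and whether its probe lies in the deleted part is not given, so it does not check the labels. Hoxb values that moved most without KO 2 or KO 3 are given below with and without those arrays.

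RefSeq promoter sequence could be matched for 3 of the 10 members, Hoxb1, Hoxb4 and Hoxb8, and not for Hoxb7 or Hoxb9. These 3 are shown because no such sequence could be matched for the other members. Hox and Pbx proteins are known to act on Hox promoters, in the mouse hindbrain on that of Hoxb1 itself. Each line gives the 250 bases before the transcription start, 5′ to 3′ on the plus strand (build GRCm38.p6, sequence from RefSeq). Capitals mark matches to TGATNNAT on either strand, the 8-base form of the joint Hox and Pbx site.
Hoxb1, chr11:96365508-96365757: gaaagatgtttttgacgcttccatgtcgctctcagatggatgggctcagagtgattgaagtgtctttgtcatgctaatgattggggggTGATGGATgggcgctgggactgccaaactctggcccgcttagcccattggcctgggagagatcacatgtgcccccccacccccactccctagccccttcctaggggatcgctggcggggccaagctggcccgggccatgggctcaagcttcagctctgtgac
Hoxb4, chr11:96318017-96318266: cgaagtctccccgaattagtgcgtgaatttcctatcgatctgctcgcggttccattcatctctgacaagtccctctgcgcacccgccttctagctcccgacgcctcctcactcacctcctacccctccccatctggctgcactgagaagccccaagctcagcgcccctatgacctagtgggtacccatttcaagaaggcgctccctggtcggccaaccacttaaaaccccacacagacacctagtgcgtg
Hoxb8, chr11:96281655-96281904: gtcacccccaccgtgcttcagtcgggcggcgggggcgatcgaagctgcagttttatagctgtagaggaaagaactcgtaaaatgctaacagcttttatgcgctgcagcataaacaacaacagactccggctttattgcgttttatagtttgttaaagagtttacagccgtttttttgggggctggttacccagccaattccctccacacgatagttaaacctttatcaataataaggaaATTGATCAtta
The Hoxb1 window held 1 match, which began 162 bases before the start. The Hoxb8 window held 1 match on the minus strand, beginning 11 bases before the start, and the Hoxb4 window held 0. Of 32851 promoter windows of the same length, 2524 (7.68%) held the motif on either strand. The windows of Hoxb1, Hoxb4 and Hoxb8 held 7, 14 and 12 CpG dinucleotides, against a median of 6 over all windows. A match describes these letters only, and binding was not measured here.

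The genes at the ends of the cluster were at background on nearly all arrays. Hoxb1 (NM_008266), the gene of facial nerve territory in the hindbrain, was read by 10 spots of 1 probe, and 1 of its 80 Cy5 readings was well above background, on a KO array. Its processed Cy5 signal lay between 11.8 and 20.8 on KO 3 and between 2.31 and 15.8 on the other 7 arrays. Hoxb13 (NM_008267), which acts in the prostate and the tail, had processed Cy5 signals of 3.18, 5.17, 79.8 and 3.02 on KO 1 to KO 4 and of 3.90, 4.55, 4.13 and 4.89 on WT 1 to WT 4. It was well above background on KO 3 alone, where the Cy3 reference read 66.6 against 5.46 to 7.74 on the other arrays. The reading on KO 3 was thus high in both dyes. Neither gene passed the filter, which asked for a Cy5 reading well above background on 4 or more of the 8 arrays, and no difference is given for them. The other 8 genes, Hoxb2 to Hoxb9, were read by 9 probes that all passed the filter, with 0 saturated and 0 flagged readings.

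Hoxb9 and Hoxb7, the most posterior of the measured genes apart from Hoxb8 between them, were lower on every KO array than on any WT array. Hoxb9 (NM_008270), which patterns the thoracic skeleton, had log2 ratios of -0.72, -1.21, -1.13 and -0.83 on KO 1 to KO 4, against 0.26, -0.03, -0.10 and 0.04 on WT 1 to WT 4. The highest KO array was KO 1 and the lowest WT array was WT 3, and they were still apart. The group means were -0.97 ± 0.24 in KO and 0.04 ± 0.16 in WT (SD, n = 4 each), a difference of -1.02 ± 0.13 (SE), which is 2.02-fold. Of all 31665 tested probes, 0.129% had a difference as low or lower.

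Hoxb7 (NM_010460), the gene that defines the deleted cells, had log2 ratios of -0.59, -0.53, -0.64 and -0.79 on KO 1 to KO 4, against 0.11, 0.07, 0.04 and 0.05 on WT 1 to WT 4. The WT arrays were nearly equal and every KO array lay below them. The group means were -0.64 ± 0.11 in KO and 0.07 ± 0.03 in WT (SD, n = 4 each), a difference of -0.71 ± 0.08 (SE), or 1.63-fold. A difference as low or lower was found for 0.783% of the tested probes. In these bulk samples, fewer Hoxb7-expressing cells and less Hoxb7 RNA per cell cannot be told apart, and the same holds for every gene below.

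**Figure D1:**
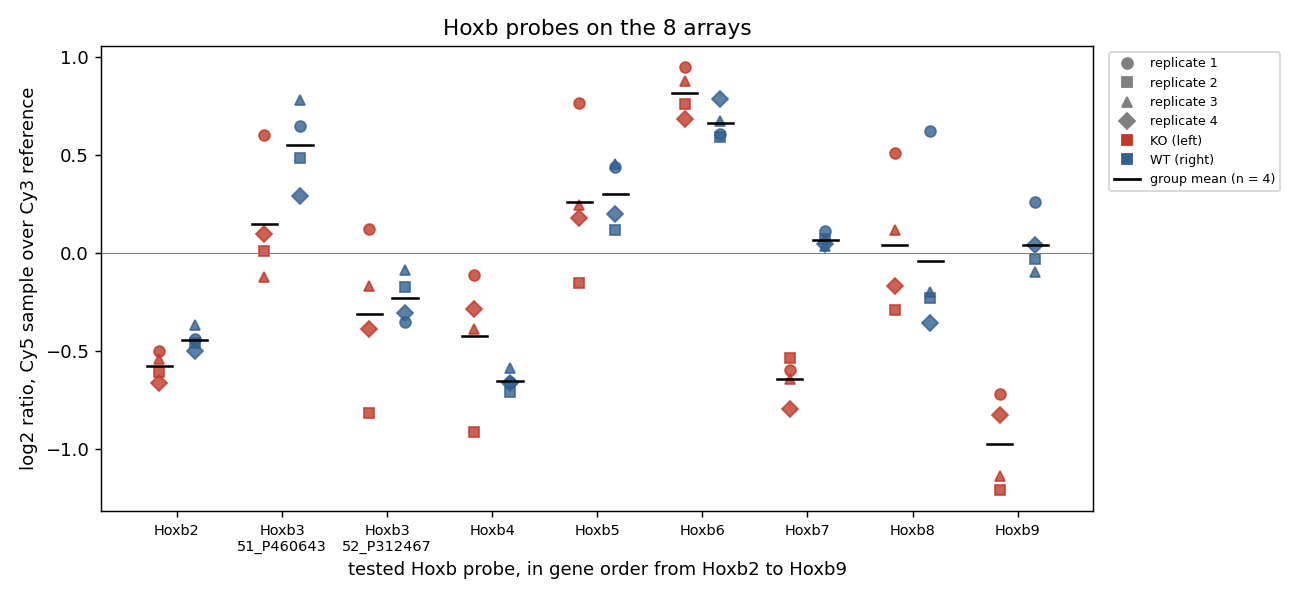
Log2 ratio of the Cy5 sample over the Cy3 reference (vertical axis) for the 9 tested Hoxb probes in gene order (horizontal axis), with KO arrays in red at the left and WT arrays in blue at the right of each probe. Symbols mark the replicate number and black bars the group mean of 4 arrays. KO and WT arrays do not overlap for Hoxb7 and Hoxb9, and overlap for the other 7 probes.

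The separate channels placed both differences in the sample dye. Processed Cy5 signal of Hoxb9 was 2291, 1879, 2612 and 1932 on KO 1 to KO 4 and 5579, 4125, 4324 and 5137 on WT 1 to WT 4. The Cy3 reference signal of the same spot was 3846 to 5327 on the KO arrays and 4212 to 4925 on the WT arrays, and these overlapped. Hoxb7 behaved alike, with Cy5 signals of 5897, 6998, 7510 and 4953 on KO 1 to KO 4 and of 11913, 10760, 11027 and 11360 on WT 1 to WT 4. Its Cy3 reference signal was 8322 to 11677 on the KO arrays and 9704 to 10863 on the WT arrays.

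**Figure D2:**
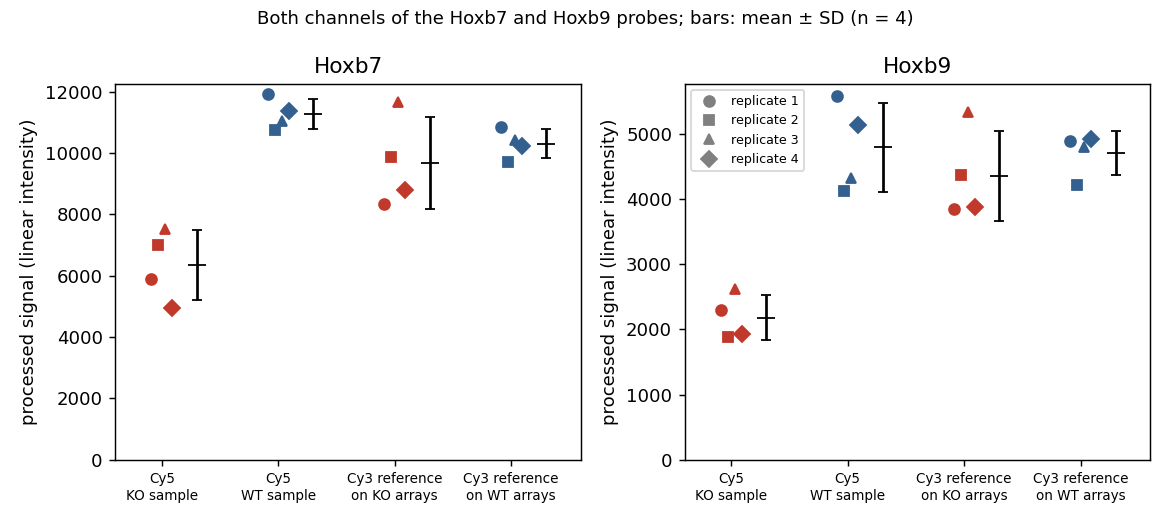
Processed linear signal (vertical axis, from 0) of the Hoxb7 probe (left panel) and the Hoxb9 probe (right panel) in the Cy5 samples and in the Cy3 reference, KO arrays in red and WT arrays in blue, with mean ± SD (n = 4). Cy5 of Hoxb9 is 1879 to 2612 in KO and 4125 to 5579 in WT, whereas the reference ranges overlap.

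Both genes were also low on KO 2, the array that otherwise lay among WT. On KO 2, 94 of all tested probes lay over 2-fold from their WT mean. Hoxb9 lay at -1.25 from the WT mean on that array, and 8 of the 28475 probes with values on all arrays were as low or lower there, itself included. Hoxb7 lay at -0.60 from the WT mean on KO 2, and 137 probes, or 0.481%, were as low or lower. On KO 1, KO 3 and KO 4, Hoxb9 lay at -0.76, -1.18 and -0.87 from the WT mean, and 1.72%, 0.418% and 1.27% of probes were as low or lower. Hoxb7 lay at -0.66, -0.71 and -0.86 on KO 1, KO 3 and KO 4, where 2.65%, 4.72% and 1.32% of probes were as low or lower. Without KO 2 the difference was -0.94 for Hoxb9 and -0.74 for Hoxb7. Without KO 3 it was -0.96 and -0.71 for the same genes, and without KO 2 and KO 3 together it was -0.82 and -0.76. Leaving out either array or both changed neither the sign of the values nor their order.

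Between Hoxb7 and Hoxb9 lies Hoxb8 (NM_010461), which is known for its role in microglia and in grooming behaviour of mice, and it did not share their pattern. Its log2 ratios were 0.51, -0.29, 0.12 and -0.17 on KO 1 to KO 4 and 0.62, -0.23, -0.20 and -0.35 on WT 1 to WT 4. The groups overlapped almost completely, with KO 1 and WT 1 as the high arrays of each. The difference was 0.08 ± 0.24 (SE), 0.19 ± 0.24 (SE) without KO 2, and 0.21 ± 0.29 (SE) without KO 2 and KO 3.

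Hoxb5 and Hoxb6 occupy the middle of the cluster. Hoxb6 (NM_008269) had log2 ratios of 0.95, 0.76, 0.88 and 0.68 on KO 1 to KO 4 and of 0.61, 0.59, 0.67 and 0.79 on WT 1 to WT 4, a difference of 0.15 ± 0.09 (SE). KO 1 and KO 3 lay above every WT array, and the groups overlapped through KO 2, KO 4 and WT 4. Hoxb5 (NM_008268), which acts in the enteric nervous system and the lung, had log2 ratios of 0.77, -0.15, 0.24 and 0.18 on KO 1 to KO 4 and of 0.44, 0.12, 0.46 and 0.20 on WT 1 to WT 4. KO 1 was above and KO 2 below all WT arrays, and the difference was -0.04 ± 0.18 (SE), or 0.09 without KO 2 and 0.17 without KO 2 and KO 3.

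Hoxb4 (NM_010459), best known as a regulator of blood stem cells, had log2 ratios of -0.11, -0.91, -0.39 and -0.28 on KO 1 to KO 4 and of -0.66, -0.71, -0.59 and -0.66 on WT 1 to WT 4. KO 1, KO 3 and KO 4 lay above every WT array and KO 2 lay below every one. Of all 28475 probes with values on all arrays, 33.1% did not overlap, in either direction, once KO 2 was left out. The WT arrays spanned 0.12 and the KO arrays 0.80, and the SD of the KO arrays was 6.99 times that of the WT arrays. The difference was 0.23 ± 0.15 (SE). It was 0.39 ± 0.09 (SE) without KO 2 and 0.46 ± 0.09 (SE) without KO 2 and KO 3. On its own, each of KO 1, KO 3 and KO 4 placed Hoxb4 among the upper 9.11%, 13.6% and 15.6% of probes by distance above the WT mean.

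At the anterior side of the measured genes, the 2 probes of Hoxb3 (NM_001079869), a gene of the hindbrain and the pharyngeal arches, gave different values. Probe A_51_P460643 had log2 ratios of 0.60, 0.01, -0.12 and 0.10 on KO 1 to KO 4 and of 0.65, 0.49, 0.78 and 0.29 on WT 1 to WT 4, a difference of -0.41 ± 0.16 (SE). KO 2, KO 3 and KO 4 lay below every WT array, and KO 1 lay among them. Probe A_52_P312467 had log2 ratios of 0.12, -0.81, -0.17 and -0.39 on KO 1 to KO 4 and of -0.35, -0.17, -0.09 and -0.31 on WT 1 to WT 4, a difference of -0.08 ± 0.18 (SE). On this probe KO 1 was above and KO 2 and KO 4 below all WT arrays. The value without KO 2 was -0.36 for the first probe and 0.09 for the second. Without KO 3 it was -0.32 and -0.13, and without both arrays -0.20 ± 0.18 and 0.10 ± 0.15 (SE), so no direction can be given for the gene.

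Hoxb2 (NM_134032), which acts in the facial motor territory of the hindbrain, lay close together on all arrays. It had log2 ratios of -0.50, -0.61, -0.54 and -0.66 on KO 1 to KO 4 and of -0.44, -0.46, -0.37 and -0.50 on WT 1 to WT 4, a difference of -0.13 ± 0.08 (SE). KO 2, KO 3 and KO 4 lay below every WT array. KO 1 and WT 4 were so close that the groups touched.

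Counted over the 9 tested probes, 6 differences were below 0 and 3 above it, where 54.4% of all tested probes were below 0. The median difference of the Hoxb probes was -0.08, and that of all tested probes was -0.02. KO arrays were all below WT arrays for 2 probes, Hoxb7 and Hoxb9, against 7.82% of the probes with values on all arrays, and all above them for 0, against 3.58%. At a limma adjusted p under 0.05, 0 of the 9 probes were called, against 0.00632% of all tested probes, which are 2 probes. At an unadjusted p under 0.05, 3 Hoxb probes were called by limma, all lower in KO (Hoxb7, Hoxb9 and the first probe of Hoxb3), where 23.8% of all tested probes were called in either direction and 13.8% as lower. Under other settings of limma between 0 and 3 Hoxb probes passed the adjusted threshold, with 3 when KO 2 was left out, alone or together with KO 3, settings under which 22.5% and 24.9% of all probes were called. Since the members were proposed with this contrast known, nothing is read from these counts.

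**Figure D3:**
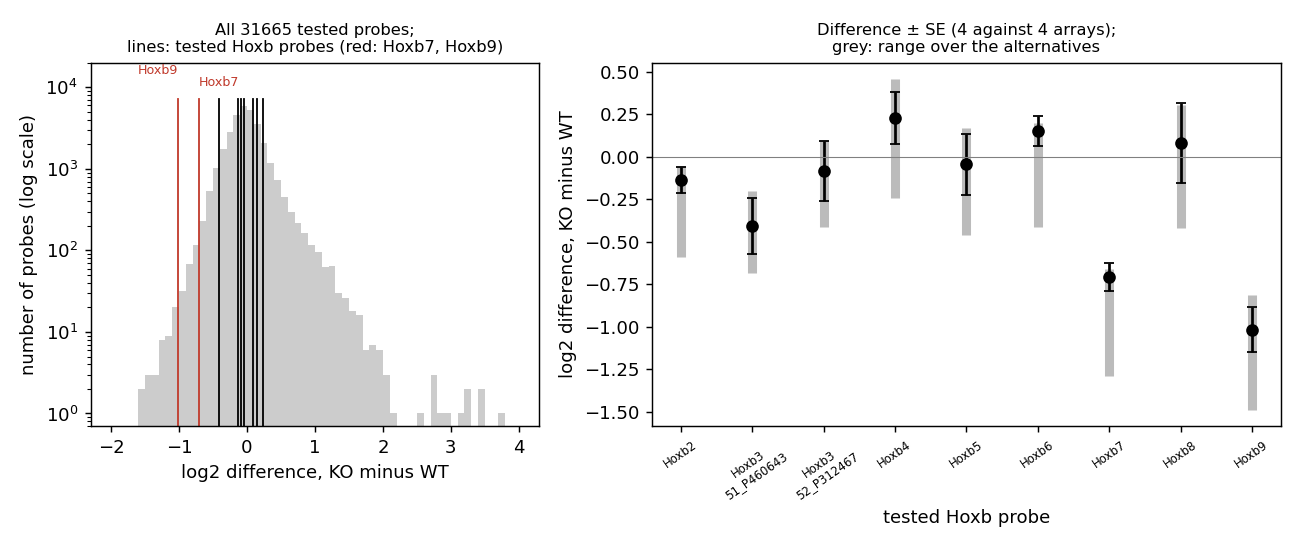
Left, the number of probes (log axis) by log2 difference, KO minus WT, over all 31665 tested probes, with a line for each tested Hoxb probe. Right, the difference of each tested Hoxb probe ± SE in black and the range of its value over the alternative settings in grey, with Hoxb9 at -1.02 and Hoxb7 at -0.71 as the lowest.

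The KO arrays differed from each other more than the WT arrays did across the cluster. KO 1 was the highest KO array on 8 of the 9 probes, the exception being Hoxb7, and KO 2 was the lowest on 5. KO 1 lay above all WT arrays on 4 probes (Hoxb3, Hoxb4, Hoxb5 and Hoxb6) and below all of them on 2 (Hoxb7 and Hoxb9). KO 2 lay above all WT arrays on 0 probes and below all of them on 7. KO 3 was above on 2 and below on 4, and KO 4 above on 1 and below on 5. These orders and positions of single KO arrays were not counted over all probes, so nothing is read from them about the cluster. The SD over the KO arrays exceeded that over the WT arrays on 8 of the 9 probes, Hoxb8 being the exception, and on 72.0% of all probes with values on all arrays. The median of the 9 probes was 0.12, -0.53, -0.17 and -0.28 on KO 1 to KO 4 and 0.26, -0.03, -0.09 and 0.04 on WT 1 to WT 4.

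**Figure D4:**
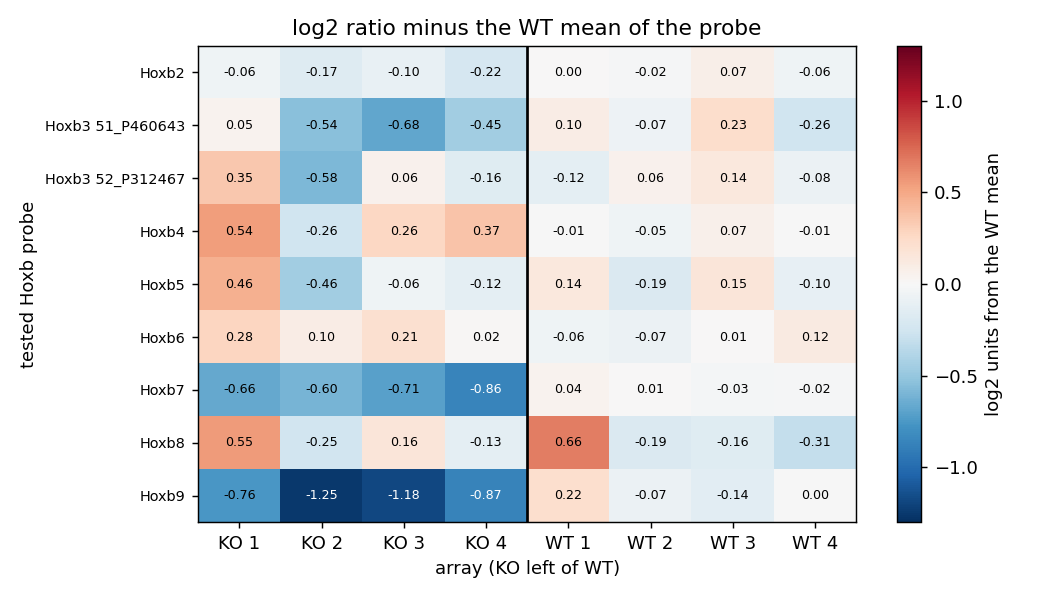
Log2 ratio minus the mean of the WT arrays, for the 9 tested Hoxb probes (rows, in gene order) on the KO arrays (left of the line) and the WT arrays (right), with red above and blue below the WT mean. The rows of Hoxb7 and Hoxb9 are blue on all 4 KO arrays, and the column of KO 1 is above the WT mean on all rows except Hoxb2, Hoxb7 and Hoxb9.

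The array of WT 3, on which the same RNA was labelled with both dyes, showed how far a log2 ratio of a single probe can be taken. On it the Hoxb probes ranged from -0.59 (Hoxb4) to 0.78 (the first Hoxb3 probe), and 3 of the 9 were more than 0.5 away from 0. The median size of that ratio over all probes was 0.15. A ratio above or below 0 is therefore not a level relative to WT 3, and only the difference between arrays of one probe is used.

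Transcripts of the cluster other than the Hox genes were few. Gm53 (NR_037977), a long noncoding RNA listed between Hoxb13 and Hoxb9 in RefSeq, had log2 ratios of 0.11, -0.10, -0.17 and 0.16 on KO 1 to KO 4 and of 0.33, 0.26, 0.35 and 0.28 on WT 1 to WT 4. Every KO array was below every WT array, which held for 7.82% of all probes with values on all arrays. The difference of -0.31 ± 0.10 (SE) did not pass the test (limma adjusted p = 0.124). Gm11529, a noncoding gene on the Skap1 side, was well above background on KO 3 alone and did not pass the filter. No probe was annotated with an accession of Hoxb3os, Hoxb5os, Mir10a or Mir196a-1.

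The array also carried 17 probes for 5 intergenic transcripts named only by mm9 coordinates between 96111499 and 96176029 of chromosome 11, of which 15 probes passed the filter. The files give no mm9 positions for the Hoxb genes, so whether and where these transcripts lie in the cluster was not determined here. The 3 probes of chr11:96175764-96176029 (plus strand) had differences of 1.08 to 1.28, none past the test (limma adjusted p between 0.123 and 0.169). On them the log2 ratio was 1.90 to 2.10 on KO 1, 0.60 to 0.86 on KO 3, 1.29 to 1.55 on KO 4 and, lowest, -0.58 to -0.07 on KO 2, and -0.53 to 0.25 on the WT arrays. KO 1, KO 3 and KO 4 were above every WT array on all 3 probes and KO 2 was above on none. Without KO 2, KO and WT arrays did not overlap, in either direction, on 33.1% of all probes with values on all arrays. The 3 probes of chr11:96173788-96174352 (plus strand) had differences of 0.50 to 0.79 (limma adjusted p between 0.147 and 0.256), again with KO 1, KO 3 and KO 4 above every WT array. For chr11:96112907-96125798 (plus strand), the 3 probes ranged from -0.58 to 0.03. The longer chr11:96111499-96126224 ranged from 0.13 to 0.36 on its 4 plus-strand probes and from -0.27 to -0.14 on the 2 tested minus-strand probes. The plus-strand probe at 0.13 was well above background on 4 KO arrays and 0 WT arrays. It passed the filter through the KO arrays alone, so nothing is read from its value.

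The protein-coding neighbours were taken on each side of the cluster, and the sides were not tested against each other. On the Hoxb13 side, 5 of the 6 nearest genes were tested, and their differences lay between -0.13 (Snf8) and 0.10 (Ttll6) with a median of -0.01. Atp5g1 was at -0.12, Calcoco2 at 0.06 and Ube2z at -0.01, and Gip did not pass the filter. A second Snf8 probe was at -0.22. On the Hoxb1 side all 6 of the 6 genes were below 0 at their brightest probe, with a median of -0.26, against -0.04 over 15112 genes at their brightest probe. Of those 15112 genes, 57.1% were below 0. Skap1, an adaptor of T cell adhesion, was at -0.49 ± 0.16 (SE) and Copz2, a coatomer subunit, at -0.35 ± 0.11 (SE), with -0.36 at its second probe. Cdk5rap3, Nfe2l1, Cbx1 and Snx11 were at -0.23, -0.29, -0.19 and -0.14, and the other probes of Snx11 were at -0.24 and, above 0, at 0.07. None of these passed the test (limma adjusted p = 0.12 and 0.11 for the probes of Copz2). The array medians of the Hoxb1-side genes ranged from -0.43 to -0.12 on the KO arrays and from -0.07 to 0.03 on the WT arrays. Nfe2l1 and Cbx1 had no value on KO 3, so its median of -0.43 rests on the remaining genes.

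The other Hox clusters gave a setting for the Hoxb values. None of their genes passed the adjusted threshold. Of 10 tested Hoxa genes 9 were below 0 (median -0.15), of 7 Hoxc genes all 7 (median -0.24), and of 8 Hoxd genes 5 (median -0.10), where 57.1% of all genes were below 0. Hoxa10 was at -0.68 ± 0.18 (SE; limma adjusted p = 0.111) and Hoxc10 at -0.73 ± 0.27 (SE; limma adjusted p = 0.163), the fit of Hoxc10 having no value on KO 3. Hoxd9, the paralogue of Hoxb9 in the Hoxd cluster, had log2 ratios of -0.59, -0.54, -0.44 and -0.50 on KO 1 to KO 4 and of -0.07, -0.22, 0.19 and 0.03 on WT 1 to WT 4. Its arrays did not overlap, and its difference was -0.50 ± 0.10 (SE; limma adjusted p = 0.101). The other paralogues of Hoxb9, Hoxa9 and Hoxc9, were at -0.23 ± 0.14 and -0.53 ± 0.26 (SE), with overlapping arrays. A second Hoxa9 probe was at -0.46 ± 0.15 (SE; limma adjusted p = 0.126), with every KO array below every WT array. That arrangement, also that of Hoxd9, was found for 7.82% of all probes with values on all arrays. Hoxa7, the paralogue of Hoxb7, was at -0.22 ± 0.16 (SE). Hoxd11 lay above 0, at 0.50 ± 0.25 (SE), but its second probe was at -0.30 ± 0.18 (SE).

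The cofactors with which Hox proteins bind DNA all had differences below 0, where 57.1% of all genes were below 0. Some were within their SE of 0, such as Pbx4 at -0.04 ± 0.12 and Meis1 at -0.23 ± 0.36 (SE). Of 9 tested TALE genes 9 were below 0 (median -0.23), and the array medians of the list were -0.11 to 0.13 on the KO arrays and 0.15 to 0.43 on the WT arrays. Pbx3 had log2 ratios of -0.11, 0.13, 0.03 and -0.20 on KO 1 to KO 4 and of 0.45, 0.51, 0.49 and 0.37 on WT 1 to WT 4, a difference of -0.49 ± 0.09 (SE; limma adjusted p = 0.0985). Every KO array of Pbx3 was below every WT array, as for 7.82% of all probes with values on all arrays. None of the 9 TALE genes passed the test.

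Genes that regulate Hox clusters gave no call. Of 18 tested upstream regulators 12 were below 0 (median -0.11), where 57.1% of all genes were below 0. Pcgf2, a Polycomb protein, was at -0.34 ± 0.10 (SE; limma adjusted p = 0.119) with -0.38 at its second probe, and Ezh2, the Polycomb methyltransferase of histone H3, at -0.27 ± 0.11 (SE; limma adjusted p = 0.168). Rarb, a retinoic acid receptor, was at -0.33 ± 0.14 (SE; limma adjusted p = 0.194). A second Rarb probe was at -0.22. The Cdx genes did not pass the filter, and Kmt2a had no probe matched by name. Of 10 tested kidney genes tied to Hox proteins 9 were below 0 (median -0.38), among them Wnt11 at -0.82 ± 0.23 (SE; limma adjusted p = 0.115) and Pax2 at -0.40 ± 0.09 (SE; limma adjusted p = 0.108), with -0.32 at the second probe of Pax2. Eya1, which acts in the nephron lineage, was at 1.11 ± 0.34 (SE; limma adjusted p = 0.12). None passed the threshold.

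**Figure D5:**
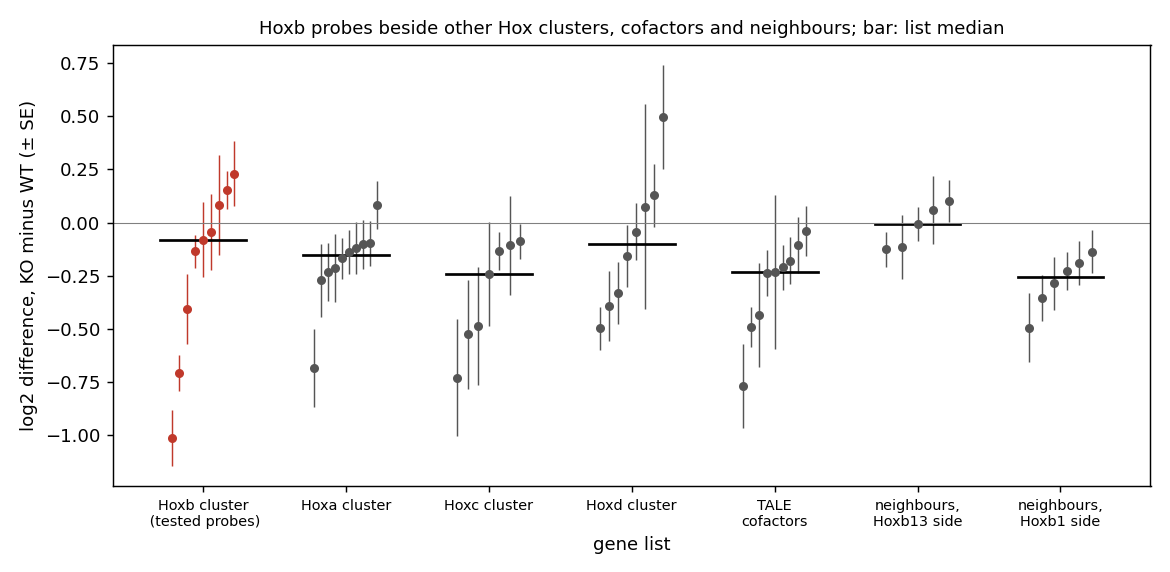
Log2 difference, KO minus WT, ± SE (vertical axis) of the 9 tested Hoxb probes in red and of single genes of the other Hox clusters, the TALE cofactors and the neighbours of the cluster in grey (horizontal axis, genes sorted by value in each list), with a bar at the list median. The medians are -0.08 for Hoxb, -0.15 for Hoxa, -0.24 for Hoxc, -0.10 for Hoxd, -0.23 for TALE genes, -0.01 on the Hoxb13 side and -0.26 on the Hoxb1 side.

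Markers of other cells were set beside Hoxb7 and Hoxb9. Of 17 ureteric bud and collecting duct markers all 17 were measured, with array medians of -0.11 to 0.28 on the KO arrays and -0.12 to 0.18 on the WT arrays, which overlapped. Of 8 leukocyte markers 7 were tested and all 7 were below 0 at their brightest probe (median -0.39). Their array medians were -0.43 to -0.30 on the KO arrays and -0.29 to 0.19 on the WT arrays. These ranges nearly met, at KO 2 and WT 4. S100a8 and S100a9, the neutrophil calgranulins, differed by -1.45 ± 0.31 and -1.20 ± 0.32 (SE), whereas Ptprc, the general leukocyte marker, differed by -0.06 ± 0.14 (SE). Coro1a, Lyz2 and Adgre1 were at -0.56, -0.39 and -0.235. Csf1r was at -0.01, and its other probes were above 0, at 0.08 and 0.14. Stroma markers (median -0.42, 9 of 9 below 0), nephron progenitor markers (median -0.74) and podocyte markers (median -0.22) had overlapping array medians, as did those of endothelium (0.22), tubules (0.07), erythroid cells (0.30) and neural cells (0.02). Over all genes at their brightest probe, 57.1% were below 0. None of these markers passed the adjusted threshold. Cd68 and Hbb-b1 had no probe matched by name. The part of other cells in the Hoxb values was not tested.

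The profiles nearest to Hoxb7 and Hoxb9 were sought among the 28474 other probes with values on all arrays, by the root-mean-square distance over the 8 arrays after the WT mean of each probe was subtracted. Since this distance uses the same contrast, it is a description. The lists below give the nearest named genes, each once. Probes without a gene name, or with a clone or predicted-gene name, were left out of the lists but counted in the ranks. Nearest to Hoxb7 were Gsg1l (distance 0.0745), Psph (0.0949), Cep41 (0.105), Maz (0.107) and Lmcd1 (0.11), with differences of -0.67, -0.70, -0.65, -0.61 and -0.58. Second probes of Gsg1l, Psph and Lmcd1 were at -0.48, -0.67 and -0.58, and that of Cep41 at -0.23. Nearest to Hoxb9 were Rint1 (0.193), Tbx3 (0.238), Tfap2a (0.239), Cuedc1 (0.243) and Psph (0.258), with differences of -0.88, -0.82, -0.91, -1.16 and -0.70. The second probe of Tfap2a differed by -0.07. Hoxb7 and Hoxb9 were 0.297 apart, which ranked Hoxb7 16 by nearness to Hoxb9 but Hoxb9 only 2199 by nearness to Hoxb7 among the 28474 probes. Besides that pair, no other Hoxb probe was nearer to either gene than the first Hoxb3 probe, at 0.318 from Hoxb7 and 0.474 from Hoxb9. Hoxb8, the gene between them, was at 0.652 and 0.819.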

How the data were processed

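Expression was read on 8 Agilent 2-colour arrays, 4 KO and 4 WT. Per the labels, labelling started from 0.5 µg of total RNA. Cy5 marked the sample of the array, Cy3 marked WT replicate 3 throughout, and dyes were not swapped. WT replicate 3 counted as 1 WT sample through its Cy5 channel. The deposited scanner files hold intensity values of 62976 spots, which the submitters' processing notes credit to Agilent Feature Extraction 10.7.3.1, with mm9 as the annotation build per the file headers. The deposited log10 ratio of Cy5 over Cy3 was made by the authors' scanner software with background subtraction and dye normalisation, per the file headers. The deposited value table of the series shares that log10 scale. It correlated with the scanner ratio at r = 0.999999 or above on every array, the values differed by no more than 0.00496, and its column medians were 0 except 0.0152 on KO 3.

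From the deposited median intensities and median local backgrounds, used because the files hold no mean signal, background was corrected by normexp (offset 50). Loess normalisation of log2 ratios followed, array by array, giving control spots a weight of 0. R 4.3.3 was used, with the packages limma (3.58.1), data.table (1.17.8) and jsonlite (2.0.0), and Python with pandas (2.3.3) and matplotlib (3.10.9). Outlier spots (non-uniform or population flags) were dropped before the spots of a probe were averaged. Probes entered the fit when Cy5 stood well above background on 4 or more of the 8 arrays and 3 or more unflagged arrays remained in each group, which held for 31665 probes. Systematic names were matched to a RefSeq table of GRCm38.p6 (21717 of 37850 distinct names). Its coordinates were not combined with the mm9 coordinates in the files, and RefSeq genes were used only for names, neighbour order and promoter sequence.

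The groups were compared by limma (lmFit, eBayes), 2-sided, and p-values were adjusted by Benjamini-Hochberg over 31665 probes, with a threshold of 0.05. The steps were tested on simulated data. Animals and litters are not given, so a p-value here reflects only the spread among these samples, and the number of arrays limits the precision. Replicate numbers 1 to 4 occur in both groups. Deviations of same-numbered samples correlated at -0.21, 0.05, 0.11 and -0.01, so the numbers were not taken as pairs.

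The members and the gene lists were chosen with earlier results of these data known. Named are every Hoxb member, Dot1l, the members of each related list past the threshold or else up to 3 with the smallest p, all tested neighbours among the 6 nearest protein-coding genes on each side, the noncoding transcripts of the cluster, and the 5 named genes nearest to Hoxb7 and to Hoxb9. Hoxa7, Hoxa9, Hoxc9, Hoxd11 and the leukocyte markers were added after their values were seen. A list takes the brightest tested probe of each gene. Some genes that this rule takes are not reported here. Alternatives were an offset of 0, no background subtraction, the scanner ratio, median centring, the series value table, Cy5 alone, scaling between arrays, other filters, a variance trend, array weights, other uses of several probes, replicate number as a block, and arrays left out.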

Additional observations from a re-analysis of the deposited data

Results flagged for a closer look

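One array stood apart within its group on a Hoxb probe. Hoxb8 on WT 1 had a log2 ratio of 0.62, against -0.23, -0.20 and -0.35 on WT 2, WT 3 and WT 4, and the gap to the nearest array was 0.84 of the range of the group, where 0.829 is the limit for 4 arrays. KO 1 had 0.51 on the same probe, above the other KO arrays. Without WT 1 the difference of Hoxb8 was 0.30. In all 18 groups of 4 arrays were examined, and chance marks about 5% of groups.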

How the results depend on the processing

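Over 24 alternatives the difference of Hoxb7 ranged from -1.29 to -0.66 and that of Hoxb9 from -1.49 to -0.82, negative in all 24. Hoxb2 was negative in all 24 (-0.59 to -0.05) and the first Hoxb3 probe in all 22 that kept it. Signs changed for Hoxb4 (negative in 1), Hoxb6 (1), Hoxb8 (3), Hoxb5 (18) and the second Hoxb3 probe (21). Median centring, which moved the median of all probes by over 0.1, gave a Hoxb median of -0.46 and values of -0.59 (Hoxb2), -0.68 and -0.41 (Hoxb3), -0.24 (Hoxb4), -0.46 (Hoxb5), -0.41 (Hoxb6), -1.29 (Hoxb7), -0.42 (Hoxb8) and -1.49 (Hoxb9). Relative to all probes Hoxb7 and Hoxb9 then stood at -1.01 and -1.21, and Hoxb4 at 0.04. Scaling between arrays gave -0.05 for Hoxb2 and 0.03 for Hoxb6, and Cy5 alone 0.04 for Hoxb6. With Cy5 alone the median of all probes was also lower, at -0.19, and Hoxb2 at -0.17 stood 0.02 above it. The cause was not tested.

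Past the adjusted threshold were 1 Hoxb probe with scaling and with no filter, 2 with a variance trend, array weights, the brightest or the mean probe, and 3 without KO 2 and KO 3. Leaving out 1 array gave 0 to 3, with 3 (Hoxb4, Hoxb7 and Hoxb9) without KO 2, where 22.5% of all probes were called. The members were proposed with this contrast known, so nothing is read from these counts of Hoxb probes. Arrays did not overlap for 2 to 4 Hoxb probes when 1 array was left out, with 4 without KO 1 and without WT 4, where 14.1% and 16.2% of all probes did not overlap, against 11.4% on all arrays. Over all probes, limma called 1 with offset 0 or no background subtraction, 5 with the scanner ratio or the series table, 0 with median centring or Cy5 alone, 6 with scaling, 4 with no filter, 9 with a variance trend, 5949 with array weights, 7 with the brightest probe, 6 with the mean probe, 7284 without KO 2 and KO 3, and 4 without KO 3 and WT 3. Leaving out 1 array gave 1 to 6180, the highest without KO 2. With replicate number as a block 0 Hoxb probes and 0 probes in all were called, the Hoxb median stayed at -0.08, and the numbers do not pair the samples.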
